A study of Homo sapiens with 9 samples.

Results

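The aryl hydrocarbon receptor (AhR) genes described here are the receptor gene AHR, its dimer partners ARNT and ARNT2, the feedback genes AHRR and TIPARP, and the classical target genes CYP1A1, CYP1A2 and CYP1B1. These 8 genes were chosen by symbol, as the receptor, its partners and its best-known targets, from 59452 gene rows, and all 8 were found in the table. RNA-seq was performed on MDA-MB-453 cells, an established human breast cancer cell line labeled by the submitters as triple-negative breast cancer (TNBC) and grown in DMEM with 10% FBS. There were 3 libraries of attached cells given DMSO vehicle, 3 libraries of cells in forced suspension on poly-HEMA-coated plates given vehicle, and 3 libraries of suspended cells given AT-0174 at 10 µmol/L, all for 48 hours. AT-0174 inhibits the tryptophan-degrading enzymes TDO2 and IDO1. Attached cells with AT-0174 were not among the groups, so the inhibitor could be compared with vehicle only in suspension, and all 9 libraries came from 1 cell line.

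AhR is a ligand-activated transcription factor of the bHLH-PAS family. Without ligand it is held in the cytosol with HSP90. Ligands such as dioxins, polycyclic aromatic hydrocarbons and the tryptophan (TRP) catabolite kynurenine (KYN) move it to the nucleus, where it pairs with ARNT and binds a short DNA element, the xenobiotic response element, whose core is GCGTG. CYP1A1, CYP1A2 and CYP1B1 encode cytochrome P450 enzymes that oxidize many AhR ligands. AHRR, the AhR repressor, competes for ARNT, and TIPARP encodes a mono-ADP-ribosyltransferase that restrains AhR activity. Since TDO2 and IDO1 produce KYN and AT-0174 blocks both, the comparisons ask whether the transcripts of this pathway differed when TNBC cells left the plate and when the inhibitor was added.

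Promoter sequence was available from RefSeq for 6 of the 8 genes, in 9 windows of 300 bases from 250 before to 50 after each start, on GRCh38.p14; ARNT2 and CYP1B1 had no entry. The letters GCGTG on either strand were found in 5 of the 9 windows, which belong to AHR, AHRR, CYP1A1 and TIPARP, and in 36.5% of all 35116 promoter windows. The longer form TNGCGTG, which contains the first motif, was found in 1 window of AHRR and in 5.51% of all windows. Windows of ARNT and CYP1A2 held neither. The AHR window (chr7:17298402-17298701) lies inside the AHR gene as annotated in GENCODE 44, not at the start of that gene span. The bases before the start are shown for CYP1A1, the target most often used as an AhR readout, for TIPARP, the member that changed in the most comparisons here, and for AHRR, whose own start separates it from a longer readthrough gene described with its counts. Capitals mark GCGTG or its reverse complement CACGC, and each sequence reads 5′ to 3′ along the gene.
CYP1A1, chr15:74725529-74725778, minus strand: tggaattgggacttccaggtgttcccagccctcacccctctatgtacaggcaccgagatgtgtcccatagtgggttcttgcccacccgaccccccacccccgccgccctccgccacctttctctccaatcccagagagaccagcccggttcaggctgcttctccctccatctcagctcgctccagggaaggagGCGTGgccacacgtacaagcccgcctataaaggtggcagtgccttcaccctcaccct
TIPARP, chr3:156674340-156674589, plus strand: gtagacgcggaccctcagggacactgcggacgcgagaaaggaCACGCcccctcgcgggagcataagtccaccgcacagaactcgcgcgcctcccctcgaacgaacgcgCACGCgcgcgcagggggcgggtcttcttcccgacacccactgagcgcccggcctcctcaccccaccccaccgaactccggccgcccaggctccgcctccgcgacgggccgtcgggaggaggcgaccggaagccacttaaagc
AHRR, chr5:321464-321713, plus strand: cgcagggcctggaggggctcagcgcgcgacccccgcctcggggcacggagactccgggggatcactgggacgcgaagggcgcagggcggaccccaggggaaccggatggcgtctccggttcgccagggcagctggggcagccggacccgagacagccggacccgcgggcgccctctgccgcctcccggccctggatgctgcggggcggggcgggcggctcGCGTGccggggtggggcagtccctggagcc
In CYP1A1 the match was at position -57 from the start, on the strand of the gene. The last 8 bases shown for CYP1A1 lie in an exon of CYP1A1 in GENCODE 44. The TIPARP window shown held matches on the opposite strand at positions -208 and -142 from its start, and the other TIPARP windows held none. The first 107 bases shown lie in an exon of the antisense gene TIPARP-AS1 in GENCODE 44. All 250 bases shown lie within the TIPARP gene itself in that annotation. In the AHRR window shown the match was at position -30, and it lies within the span of the readthrough gene PDCD6-AHRR. The other AHRR window held matches at positions -247 and -42 from its own start. A match describes letters only and was not tied to binding in these cells.

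Sequencing depth was 36649997 to 48019126 estimated counts per library. Values are given as CPM (counts scaled to TMM-adjusted library size), which compares 1 gene between libraries, or as TPM (transcript abundance scaled to length and library), which compares genes with each other. A filter on low counts left 15528 genes for the test, among them 7 of the 8 members, since ARNT2 had too few counts. The cells had luminal epithelial markers, with the keratins KRT8, KRT18 and KRT19 and EPCAM at a summed 2569 to 2973 CPM in every library and FOXA1 and SPDEF present. ERBB2, which encodes HER2, a receptor low or absent by definition in TNBC, had 37764 to 50812 counts per library. These are RNA counts, whereas the definition concerns the receptor itself, so the TNBC label was not tested here. The basal keratins KRT5, KRT14 and KRT17 were at 4 counts or fewer, whereas the basal marker TP63 had 206 to 266 counts. Of the markers of other cell types, DCN, LUM and CD3E were at 0 in all libraries. The leukocyte list summed to 1.27 to 2.36 CPM, mostly CD68 with 53 to 102 counts, and the endothelial list to 0.137 to 0.340 CPM, mostly VWF with 4 to 13 counts. The 5 fibroblast markers summed to 131 to 149 CPM in attached cells and 108 to 114 CPM in suspended cells, nearly all of it COL1A1, and their part in the results was not tested.

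Ordered by level per length, ARNT was the most abundant member, with a mean of 45.4 TPM over the 9 libraries (range 39.7 to 52.4), followed by CYP1B1 at 42.2 TPM (39.5 to 48.0). These overlap, so their order is not resolved. TIPARP followed at 13.9 TPM (11.5 to 15.8), below both and above all others without overlap. CYP1A1 had 4.68 TPM (3.16 to 7.38) and AHR 3.119 TPM (2.34 to 3.90), and these ranges overlap as well. AHRR at 0.425 TPM (0.0906 to 0.964), CYP1A2 at 0.246 TPM (0.116 to 0.386) and ARNT2 at 0.0454 TPM (0.0103 to 0.154) were the lowest, with each range overlapping the next. Of genes with any TPM, 87.1% lay below ARNT, 86.3% below CYP1B1 and 62.5% below AHR. Thus the partner ARNT stood above the receptor in all groups, with an ARNT to AHR ratio of TPM of 13.9 ± 1.39 in attached cells, 15.4 ± 2.23 in suspension with vehicle and 15.1 ± 3.18 in suspension with AT-0174 (SD, n = 3 each). Among the targets, CYP1B1 exceeded CYP1A1 in TPM by a ratio of 8.77 ± 2.25, 10.8 ± 1.61 and 9.03 ± 2.93 in the same order of groups (SD, n = 3 each).

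**Figure D1:**
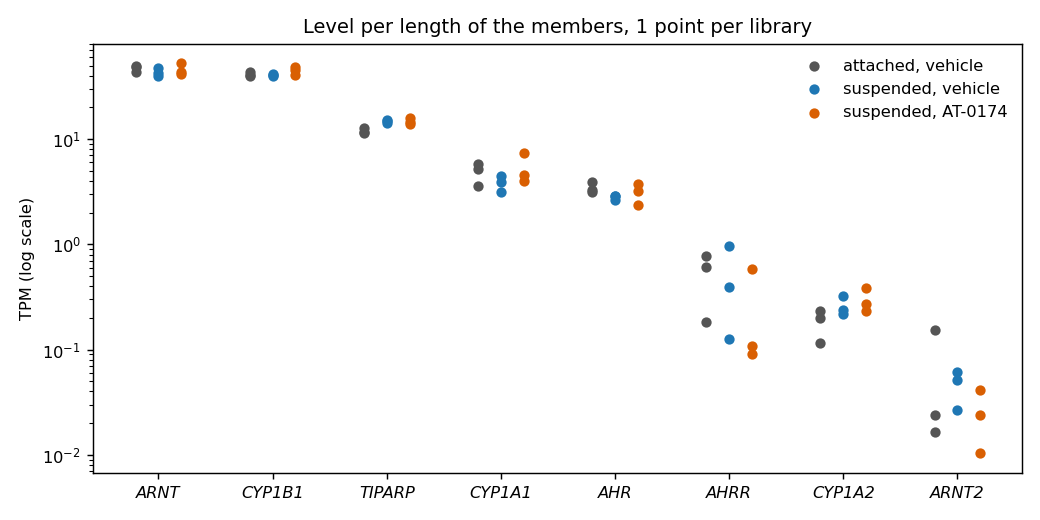
TPM on a log scale for the 8 members, 1 point per library, colored by group and ordered by mean. ARNT and CYP1B1 lie near 40 to 50 TPM, TIPARP between 11.5 and 15.8 TPM, and AHRR, CYP1A2 and ARNT2 below 1 TPM in all 9 libraries.

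In the comparison of suspension with attached culture, both with vehicle, 1 of the 7 tested members changed, TIPARP, which rose 1.14-fold. AHR, ARNT, AHRR and the 3 CYP1 targets did not pass, and ARNT2 was not tested. Among all tested genes 21.2% passed, 10.4% upward and 10.8% downward. TIPARP was also the 1 tested member whose groups did not overlap, which held for 38.1% of all tested genes (19.4% higher and 18.7% lower in suspension). The median log2 fold change was 0.00 over all tested genes and -0.09 over the 7 members. At an unadjusted p under 0.05 there were 2 members, TIPARP and ARNT. The test here and throughout was edgeR's quasi-likelihood test in 1 fit of the 9 libraries, with Benjamini-Hochberg adjustment over all tested genes and a threshold of 0.05.

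In the comparison of AT-0174 with vehicle in suspension, 0 of the 7 tested members passed, by edgeR, limma-voom and DESeq2 alike, against 0.779% of all tested genes by edgeR (0.522% higher and 0.258% lower). At an unadjusted p under 0.05 edgeR gave 1 member, CYP1B1. The groups did not overlap for 3 of the 7 tested members, with CYP1A1 and CYP1B1 higher and AHR lower with AT-0174, against 15.4% of all tested genes (7.75% higher and 7.66% lower). The median log2 fold change was 0.04 over the 7 members and 0.00 over all tested genes. With suspended AT-0174 cells against attached vehicle cells, which differ in both culture and compound and share their libraries with the other 2 comparisons, 3 of 7 members passed, with TIPARP and CYP1B1 higher and AHR lower, against 24% of all tested genes (12.2% higher and 11.8% lower). Of the tested members, the groups did not overlap for TIPARP and AHR there, against 39.5% of all tested genes (20.4% higher and 19.1% lower). The members' median log2 fold change was 0.08.

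**Figure D2:**
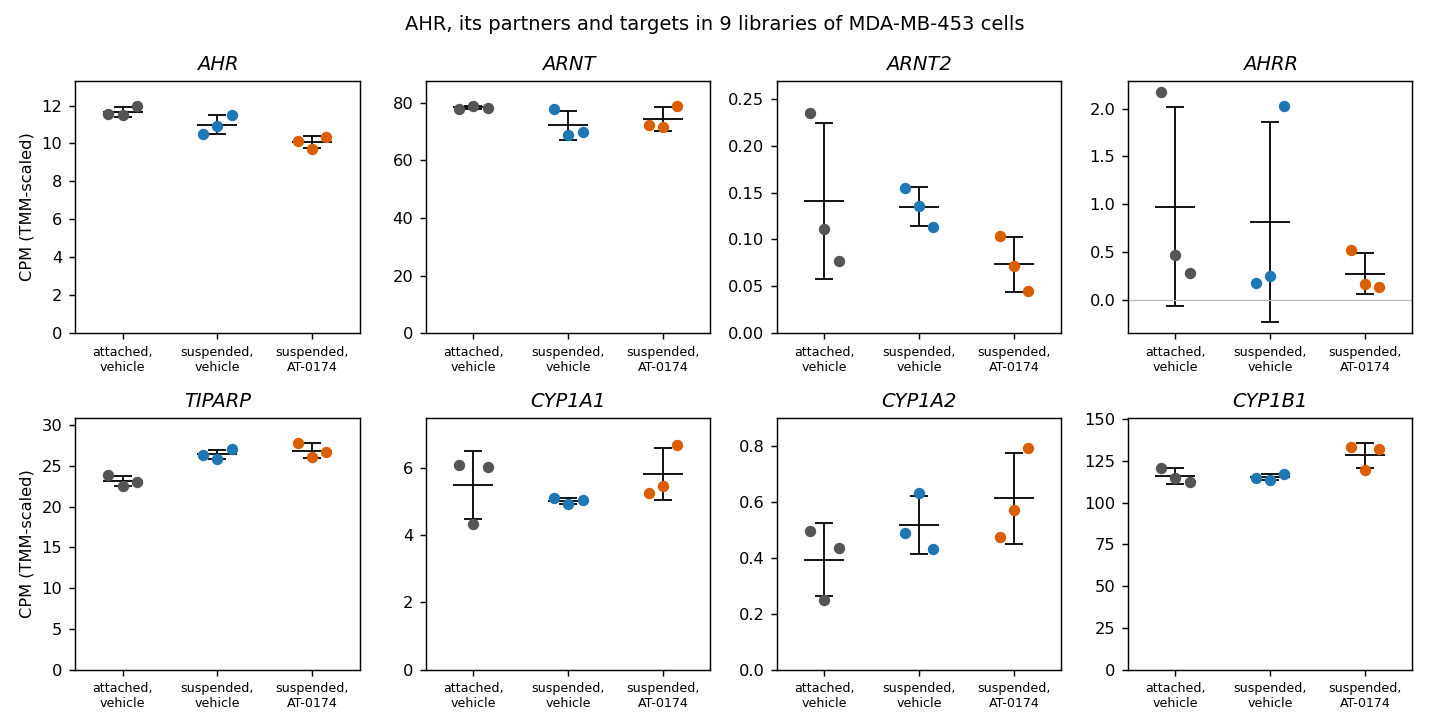
CPM after TMM scaling for each member, with 1 point per library, the group mean as a horizontal line and the SD as a bar (n = 3 per group), and a separate vertical axis for each gene. TIPARP is above 25 CPM in every suspended library and below 24 CPM in every attached one, and AHRR has 1 library near 2 CPM in each of the vehicle groups.

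AHR encodes the receptor itself, and lies on chromosome 7 (16916359 to 17346152, plus strand, GRCh38). In attached cells AHR had 11.6, 11.5 and 12.0 CPM, in suspension with vehicle 10.5, 10.9 and 11.5 CPM, and in suspension with AT-0174 10.1, 9.72 and 10.3 CPM. The attached and suspended vehicle libraries overlapped, with suspended replicate 3 just above the lowest attached library, and every AT-0174 library was below every other library. The log2 fold change of suspension against attached was -0.09 (SE 0.0616, 95% interval -0.22 to 0.05, edgeR adjusted p = 0.349). That of AT-0174 against vehicle in suspension was -0.13 (SE 0.0615, interval -0.26 to 0.01, edgeR adjusted p = 0.591). With counts rebuilt from TPM these values were -0.38 and 0.17 (edgeR adjusted p = 0.121 and 0.903), so the second turned sign. Between suspended AT-0174 cells and attached cells AHR fell by 0.21 on the log2 scale (SE 0.0618, interval -0.35 to -0.08, edgeR adjusted p = 0.0255). The last call was lost when attached replicate 1 (edgeR adjusted p = 0.0513), attached replicate 3 (0.0824), AT-0174 replicate 1 (0.0655) or AT-0174 replicate 2 (0.0794) was left out, with the DESeq2 test (0.0831), with no filter on low counts (0.0969) and with counts rebuilt from TPM (0.385). In bulk libraries, fewer cells with a transcript and less RNA per cell cannot be told apart.

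Of the partners, ARNT (chromosome 1, 150809713 to 150876708, minus strand) encodes the usual dimer partner of AhR and of the hypoxia factors. Its values were 77.9, 79.1 and 78.3 CPM in attached cells, 78.0, 69.0 and 69.8 CPM in suspension with vehicle, and 72.4, 71.6 and 79.0 CPM in suspension with AT-0174. Suspended replicate 1 was within the attached range and the other 2 vehicle libraries were below it, as were 2 of the 3 AT-0174 libraries. The log2 fold change of suspension against attached was -0.12 (SE 0.051, interval -0.23 to -0.01, edgeR adjusted p = 0.118). Without suspended vehicle replicate 1 it was -0.17 and passed (edgeR adjusted p = 0.0274), whereas it passed in none of the other 14 alternatives. AT-0174 against vehicle gave 0.04 (SE 0.0507, edgeR adjusted p = 0.884), and AT-0174 against attached -0.08 (SE 0.0508, edgeR adjusted p = 0.301). ARNT2 (chromosome 15, 80404350 to 80597933, plus strand), a paralog of ARNT best known from neural tissue, had only 9, 4 and 3 counts in attached cells, 6, 6 and 5 in suspension with vehicle and 5, 3 and 2 with AT-0174. These counts lie around the limit of 3 counts that a count of 0 allows, and no fold change is given.

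TIPARP (chromosome 3, 156673235 to 156706770, plus strand) is an AhR target that acts back on the receptor, and was the only member called in more than 1 comparison. It had 23.9, 22.6 and 23.0 CPM in attached cells, 26.3, 25.9 and 27.04 CPM in suspension with vehicle, and 27.8, 26.04 and 26.7 CPM in suspension with AT-0174. All 6 suspended libraries were above all 3 attached libraries, and the 2 suspended groups overlapped. TIPARP rose in suspension by a log2 fold change of 0.19 (SE 0.045, interval 0.09 to 0.29, edgeR adjusted p = 0.0114), and was higher in suspended AT-0174 cells than in attached cells by 0.22 (SE 0.0448, interval 0.12 to 0.31, edgeR adjusted p = 0.00472). AT-0174 against vehicle in suspension gave 0.03 (SE 0.0439, interval -0.07 to 0.12, edgeR adjusted p = 0.925). Both calls held in each fit that left out a library, and the first was lost only when counts were rebuilt from TPM (0.21, edgeR adjusted p = 0.0635). The antisense gene TIPARP-AS1, which overlaps its 5′ end, had 6 to 17 counts per library and a suspension log2 fold change of -0.55 (SE 0.411, edgeR adjusted p = 0.382). The strand setting of the counting is not given in the sources used here, so reads of the overlap cannot be assigned to 1 strand with certainty.

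AHRR (chromosome 5, 321714 to 438291, plus strand) had the largest spread within the vehicle groups, relative to its mean, of the 7 tested members. Its values were 2.17, 0.470 and 0.283 CPM in attached cells, 0.181, 0.249 and 2.03 CPM in suspension with vehicle, and 0.518, 0.167 and 0.136 CPM with AT-0174. A single library in each vehicle group was near 2 CPM, and the other 7 of the 9 libraries were near or below 0.5 CPM. The readthrough gene PDCD6-AHRR (271670 to 438291 on the same strand), which joins the upstream gene PDCD6 to AHRR, had the reverse pattern, with 0, 2.13 and 2.27 CPM in attached cells, 1.71, 1.25 and 0 CPM in suspension with vehicle, and 1.47, 1.79 and 1.72 CPM with AT-0174. Thus it was at 0 in exactly the libraries where AHRR was high, attached replicate 1 and suspended vehicle replicate 3.

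The same split was seen in single transcripts. The AHRR transcript ENST00000316418 was given 78.1 and 72.3 counts in those libraries and 0 in the other 7, and the readthrough transcript ENST00000505113 was at 0 in them. In GENCODE 44 these transcripts have 11 and 13 exons and share 5561 exonic bases, which is 98.7% of the 5637 bases of the AHRR transcript and 95.5% of the 5820 bases of the readthrough transcript. Only 76 bases belong to the first alone and 259 to the second alone.

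With AHRR and PDCD6-AHRR summed, the values were 2.17, 2.60 and 2.55 CPM in attached cells, 1.89, 1.496 and 2.03 CPM in suspension with vehicle, and 1.99, 1.96 and 1.86 CPM with AT-0174. Every suspended library was below every attached library, and the libraries near 2 CPM no longer stood apart. In a fit of this sum, chosen after its values were seen, the log2 fold change of suspension against attached was -0.44 (SE 0.161, interval -0.79 to -0.09, edgeR adjusted p = 0.0727), and did not pass. AT-0174 against vehicle gave 0.10 (SE 0.162, edgeR adjusted p = 0.918), and AT-0174 against attached -0.33 (SE 0.159, edgeR adjusted p = 0.151). For AHRR alone the same 3 values were -0.24 (SE 0.846, edgeR adjusted p = 0.872), -1.56 (SE 0.950, 0.688) and -1.80 (SE 0.947, 0.193). Without attached replicate 1 the first became 1.13, and without suspended vehicle replicate 3 it became -2.16 and the second became 0.35, none of them called. With no filter on low counts, AHRR alone passed for AT-0174 against vehicle and against attached (edgeR adjusted p = 0.000832 and 5e-06). In the counts of AHRR alone, a change of the gene and a change in how reads were divided between it and PDCD6-AHRR cannot be told apart.

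**Figure D3:**
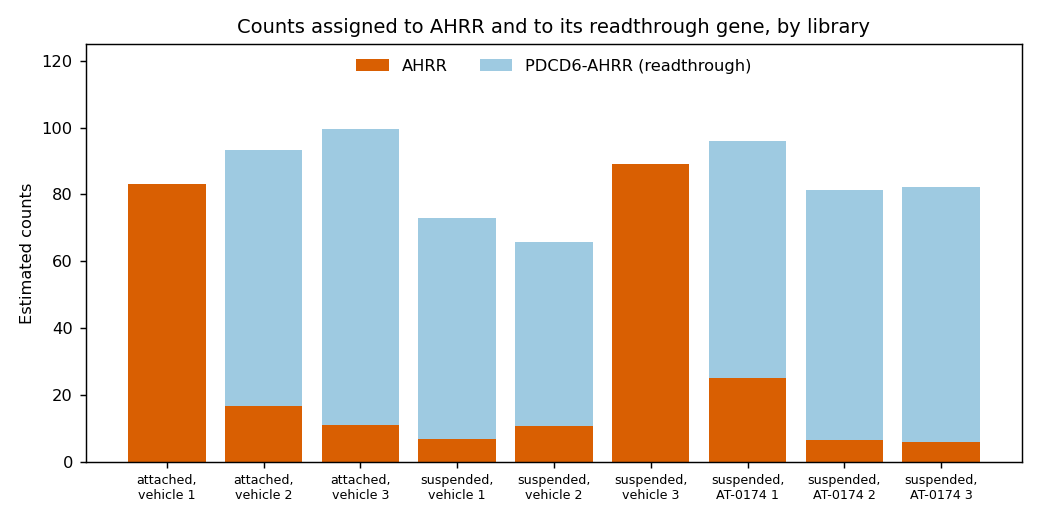
Estimated counts given to AHRR (orange) and to the readthrough gene PDCD6-AHRR (blue), stacked for each of the 9 libraries. Attached replicate 1 and suspended vehicle replicate 3 have counts for AHRR alone, and the stacked sum is 65.9 to 99.5 counts in all libraries.

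CYP1A1 (chromosome 15, 74719542 to 74725536, minus strand) had 6.09, 4.32 and 6.03 CPM in attached cells, 5.09, 4.92 and 5.03 CPM in suspension with vehicle, and 5.26, 5.47 and 6.69 CPM with AT-0174. The attached libraries lay on both sides of the suspended vehicle libraries, and all 3 AT-0174 libraries were above all 3 suspended vehicle libraries. The log2 fold change was -0.13 for suspension against attached (SE 0.137, interval -0.43 to 0.17, edgeR adjusted p = 0.546), 0.21 for AT-0174 against vehicle (SE 0.135, interval -0.08 to 0.50, edgeR adjusted p = 0.71) and 0.08 for AT-0174 against attached (SE 0.135, edgeR adjusted p = 0.709). With counts rebuilt from TPM the first and second were -0.45 and 0.51 (edgeR adjusted p = 0.286 and 0.737), and leaving out each library gave -0.27 to -0.05 and 0.09 to 0.28, none of them called.

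CYP1A2 (chromosome 15, 74748845 to 74756607, plus strand), which lies 23308 bases from CYP1A1 and is mainly a liver enzyme, had 0.497, 0.249 and 0.438 CPM in attached cells, 0.491, 0.635 and 0.432 CPM in suspension with vehicle and 0.476, 0.573 and 0.793 CPM with AT-0174. These values rested on 9 to 35 counts per library and all 3 groups overlapped. The log2 fold change was 0.39 for suspension (SE 0.341, interval -0.35 to 1.13, edgeR adjusted p = 0.459), 0.24 for AT-0174 against vehicle (SE 0.320, edgeR adjusted p = 0.9) and 0.63 for AT-0174 against attached (SE 0.334, edgeR adjusted p = 0.197).

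CYP1B1 (chromosome 2, 38066973 to 38109902, minus strand), the P450 of this family that is widely expressed outside the liver and metabolizes estrogens, was the most abundant target. It had 121, 115 and 112 CPM in attached cells, 115, 114 and 117 CPM in suspension with vehicle, and 133, 120 and 132 CPM with AT-0174. The vehicle groups overlapped, and every AT-0174 library was above every suspended vehicle library, with AT-0174 replicate 2 just below the highest attached library. Suspension against attached gave a log2 fold change of -0.01 (SE 0.044, interval -0.11 to 0.08, edgeR adjusted p = 0.891). AT-0174 against vehicle gave 0.16 (SE 0.0436, interval 0.06 to 0.25), a fold of 1.12 that ranked 304 of 15528 by p, and it did not pass (edgeR adjusted p = 0.173). CYP1B1 was higher in suspended AT-0174 cells than in attached cells by 0.15 (SE 0.0437, interval 0.05 to 0.24, edgeR adjusted p = 0.0287). This call was lost without attached replicate 2 (edgeR adjusted p = 0.0789), attached replicate 3 (0.107), AT-0174 replicate 1 (0.12) or AT-0174 replicate 3 (0.102), and with counts rebuilt from TPM (0.418). With no filter on low counts, the comparison of AT-0174 with vehicle passed (edgeR adjusted p = 0.00547). That comparison was near the threshold without AT-0174 replicate 2 (edgeR adjusted p = 0.0506) and with the DESeq2 test (adjusted p = 0.0565). It passed in 1 of 15 alternatives, with adjusted p up to 0.469 among the edgeR, limma-voom and DESeq2 fits. The antisense gene CYP1B1-AS1 had 22 to 40 counts per library, with log2 fold changes of 0.00 in suspension and -0.06 in the other 2 comparisons (edgeR adjusted p = 0.994, 0.982 and 0.899).

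**Figure D4:**
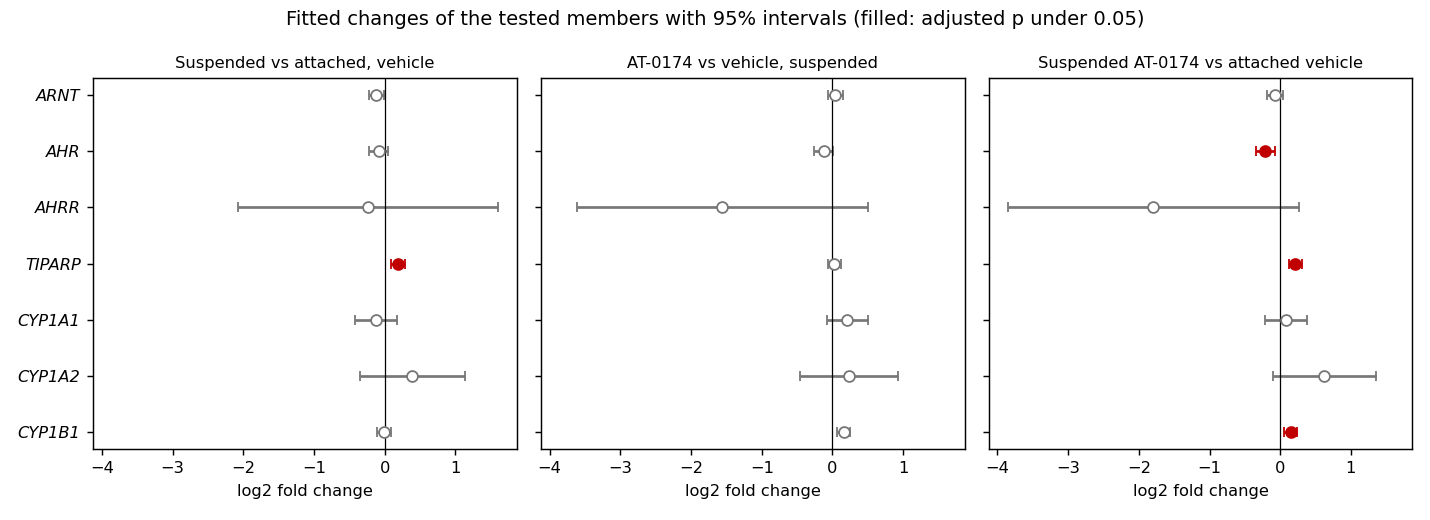
Log2 fold change of the 7 tested members in the 3 comparisons, with 95% intervals as bars and filled red points where the edgeR adjusted p was under 0.05. TIPARP is filled at 0.19 and 0.22, AHR at -0.21 and CYP1B1 at 0.15, and no point is filled for AT-0174 against vehicle in suspension.

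The transcripts that carried each gene were described by their share of the gene's TPM, with no test. TIPARP was split between ENST00000481853 and ENST00000295924 in a stable way, with the first at 57.4% ± 3.33, 57.7% ± 7.31 and 58.2% ± 2.89 in attached, suspended vehicle and suspended AT-0174 cells (SD, n = 3 each). CYP1B1 came mainly from ENST00000610745, at 68.4% ± 1.14, 77.7% ± 6.38 and 75.9% ± 1.83 in the same order (SD, n = 3 each), so its share was above the attached range in every suspended library. The second transcript, ENST00000494864, held 17.5% ± 3.92, 8.56% ± 1.88 and 12.4% ± 4.70 (SD, n = 3 each). ARNT came mainly from ENST00000505755, at 41.4%, 44.1% and 43.6%, with ENST00000505979 at 26.03%, 18.8% and 22.3% and ENST00000358595 at 18.2%, 21.2% and 19.7%. ENST00000505979 had 80.4 to 189 reads per library, and ENST00000358595 had 953 to 1365. Part of the ARNT TPM, and of its ratio to AHR, thus rested on few reads. AHR came mainly from ENST00000242057, at 59.3% ± 11.5, 78.4% ± 10.5 and 62.4% ± 19.5 (SD, n = 3 each), with ENST00000463496 at 21.1% ± 11.1, 21.4% ± 10.8 and 20.01% ± 4.36, and ENST00000492120 at 16.4%, 0% and 16.6% from at most 18.2 reads. CYP1A1 was divided among ENST00000379727 (28.8%, 28.9% and 33.8%), ENST00000566503 (41.3%, 13.3% and 38.8%) and ENST00000395048 (11.8%, 29.5% and 12.8%), the second of them from 0 to 85.0 reads per library. CYP1A2 had its 1 listed transcript, and the shares of ARNT2 and AHRR rested on too few reads to describe.

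The other genes of the pathway were taken as lists. Counts of list members higher or lower are to be read against the shares of all tested genes, which were 10.4% higher and 10.8% lower in suspension, 0.522% and 0.258% with AT-0174 against vehicle, and 12.2% and 11.8% with AT-0174 against attached. Of 13 genes of the cytosolic AhR complex and its coregulators, all tested, 2 rose in suspension, a share near that of all genes. These were the corepressor NRIP1, from 86.0 ± 2.29 to 109 ± 2.68 CPM (log2 fold change 0.35, edgeR adjusted p = 0.000369) and the p23 co-chaperone PTGES3 (0.13, edgeR adjusted p = 0.0388). With AT-0174 in suspension 0 of the 13 passed by edgeR, limma-voom or DESeq2, 2 had an unadjusted edgeR p under 0.05, and the list's median log2 fold change was -0.04. Against attached cells, suspended AT-0174 cells had 3 of the 13 higher and 1 lower by edgeR, 4 changed by limma-voom and 5 by DESeq2. NRIP1 and PTGES3 were higher again (0.28 and 0.20, edgeR adjusted p = 0.000946 and 0.00439), as was the HSP90 gene HSP90AA1 (0.11, 0.0456), and the acetyltransferase CREBBP was lower. Among 7 tested bHLH-PAS genes outside the 8 members, EPAS1, which encodes the hypoxia factor HIF-2α, and the circadian gene CLOCK rose in suspension (0.18 and 0.15, edgeR adjusted p = 0.017 and 0.0319), and 0 of 7 passed edgeR in the other 2 comparisons. There 1 of 7 (AT-0174 against vehicle) and 2 of 7 (AT-0174 against attached) had an unadjusted edgeR p under 0.05, limma-voom called 0 and 0, and DESeq2 called 1 and 0.

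Of 18 other AhR targets that are not usual NRF2 targets, 8 were tested. In suspension SLC7A5, a tryptophan and KYN transporter subunit, rose from 76.3 ± 5.39 to 97.2 ± 4.19 CPM (log2 fold change 0.35, edgeR adjusted p = 0.000733), XDH, the xanthine dehydrogenase, rose by 0.42 (0.00623) and NEDD9, a scaffold of focal adhesion signaling, fell by 0.54 on the log2 scale (0.0352). With AT-0174 in suspension 0 of the 8 passed by edgeR, limma-voom or DESeq2, 0 had an unadjusted edgeR p under 0.05, and the median log2 fold change was 0.00. Suspended AT-0174 cells had SLC7A5, STC2 and XDH higher than attached cells (0.38, 0.32 and 0.27, edgeR adjusted p = 0.000292, 0.00589 and 0.0426), and 1 of the 8, TGM1, lower. Against these 4 calls by edgeR, limma-voom made 3 in this list and DESeq2 made 2.

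AhR targets that are also driven by NRF2, the oxidative stress factor, were taken as a list of their own. Of its 8 genes 5 were tested, and 4 of the 5 rose when suspended cells were given AT-0174. The median log2 fold change of the 5 was 0.72. The lists were divided with earlier results of these data known, so the difference from the list of other AhR targets is a description only. NQO1, the quinone reductase, went from 736 ± 9.28 to 1277 ± 43.2 CPM (log2 fold change 0.79, SE 0.0326, edgeR adjusted p = 1.1e-07). UGT1A6 and UGT1A1, which encode glucuronosyltransferases, rose by 0.55 and 0.72 (edgeR adjusted p = 5.45e-06 and 0.000773), although these genes share exons, so the division of reads between them is uncertain. ALDH3A1, an aldehyde dehydrogenase, rose by 0.88 (edgeR adjusted p = 0.0221) from a low level of 1.90 ± 0.170 CPM. NFE2L2, the NRF2 gene itself, was at 110 ± 1.08 and 109 ± 3.76 CPM (log2 fold change -0.01, edgeR adjusted p = 0.961). In suspension with vehicle against attached cells, UGT1A1 fell by 0.35 on the log2 scale (edgeR adjusted p = 0.0123), ALDH3A1 rose by 0.63 (0.0216) and the other 3 did not pass. Against attached cells 4 of 5 were higher in suspended AT-0174 cells, with NQO1 at 0.79 and ALDH3A1 at 1.51 (edgeR adjusted p = 1.98e-08 and 8.88e-05).

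Of 12 genes of KYN supply and tryptophan uptake, 9 were tested, and IDO1, IDO2 and AADAT did not pass the filter on low counts. In suspension 4 of the 9 rose and 0 fell. SLC7A5 was among those that rose, and is also in the list of other AhR targets. TDO2, which opens the KYN pathway, went from 115 ± 3.15 to 167 ± 9.52 CPM (log2 fold change 0.54, edgeR adjusted p = 6.62e-06), and KMO, which hydroxylates KYN, rose by 0.39 (0.00618). With AT-0174 in suspension 1 of the 9 passed, TDO2, at 196 ± 5.08 CPM (0.23, edgeR adjusted p = 0.0221). Suspended AT-0174 cells had 5 of the 9 higher than attached cells and 0 lower, against 12.2% and 11.8% of all tested genes, with TDO2 at 0.77 and KMO at 0.50 (edgeR adjusted p = 2.28e-07 and 0.00125). The upstream neighbor PDCD6 had 86.1 ± 1.99, 90.6 ± 1.41 and 95.2 ± 1.39 CPM in attached, suspended vehicle and suspended AT-0174 cells, and was higher in the last than in the first (0.14, edgeR adjusted p = 0.00644).

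For the 5 members with a mean of at least 5 CPM, the genes with the most similar profile over the 9 libraries were found by the mean absolute difference of z-scored log2 CPM among 10527 genes. The profiles share libraries and depth, and the likeness is a description. KCTD2 (0.145), SH3BGRL (0.195) and TMPRSS2 (0.209) were closest to AHR, and TMPRSS2 went from 24.8 to 18.8 and 15.2 CPM over attached, suspended vehicle and suspended AT-0174 cells. ELOVL1 (0.128), KDSR (0.130) and GRSF1 (0.138) were closest to TIPARP, with KDSR at 26.4, 31.2 and 31.4 CPM. SLC4A1AP (0.197), CHMP2A (0.199) and RNF6 (0.216) were closest to ARNT. CYP1B1 had no gene as close, with XPR1 (0.311), SLC40A1 (0.312) and NEPRO (0.316), and CYP1A1 had C5orf34 (0.221), ZBTB45 (0.389) and TLE2 (0.408).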

How the data were processed

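RNA-seq libraries were prepared from 9 cultures of MDA-MB-453 cells, with 3 biological replicates in each of 3 groups taken from the sample titles. The authors trimmed reads with Trim Galore 0.6.7 and Cutadapt 3.4, aligned them with STAR 2.7.9a to GRCh38 with Ensembl 104, and quantified transcripts with Salmon 1.10.1 in nf-core/rnaseq 3.12.0. The deposited gene table holds estimated counts, not whole numbers, and the deposited files per sample hold the authors' TPM and estimated counts for 236920 transcripts. Salmon divides reads that fit several transcripts, so genes that share exons can exchange counts.

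Estimated counts were rounded and tested with edgeR 4.0.16 (R 4.3.3; quasi-likelihood test, TMM scaling, filterByExpr, 1 fit of 9 libraries, 3 contrasts, Benjamini-Hochberg over 15528 genes, threshold 0.05). CPM used TMM-scaled library sizes. TPM was summed over transcripts per gene, and not tested. The test was checked on simulated counts with larger changes than those of the members called here, so the check did not cover changes of that size. Intervals are at 95%, p-values measure the spread between cultures of 1 cell line, and no library duplicated another. The alternatives were DESeq2 1.42.0 (its size factors in edgeR, and its own test), limma-voom (limma 3.58.1), other filters on low counts (none, or at least 10 counts in every library), counts rebuilt from TPM, the 6 libraries of a contrast alone, a replicate block, and leaving out each library. Summing AHRR with PDCD6-AHRR was added after seeing the data.

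All 8 members were named. From the other lists, genes past the threshold were named, at most 3 per list and contrast with the smallest p (TGM1 and CREBBP, outside this rule, were named without values after their values were seen). IDO1, IDO2 and AADAT were named as not tested. Transcripts were named at 10% or more of a gene's TPM. The members and lists were chosen with earlier results of these data known. Positions are from GENCODE 44 on GRCh38, and promoter sequences from RefSeq on GRCh38.p14.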

Additional observations from a re-analysis of the deposited data

How the results depend on the processing

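In 15 alternatives per comparison (14 for AHRR and CYP1A2, which were removed by a minimum of 10 counts in every library), the number of members called was 1 in the main analysis of suspension against attached, 0 for AT-0174 against vehicle and 3 for suspended AT-0174 against attached. With counts rebuilt from TPM these became 0, 0 and 1. With no filter on low counts 2 members passed for AT-0174 against vehicle, AHRR (edgeR adjusted p = 0.000832) and CYP1B1 (0.00547). Leaving out each library gave 1 to 2, 0 to 0 and 1 to 2 members, with the lowest value in the last comparison without attached replicate 3 or AT-0174 replicate 1. TIPARP passed in 14 of 15 alternatives for suspension and in 15 of 15 for AT-0174 against attached, where AHR passed in 8 of 15 (adjusted p 0.0244 to 0.385) and CYP1B1 in 10 of 15 (0.00134 to 0.418). The sign of AHR for AT-0174 against vehicle turned to 0.17 with counts rebuilt from TPM, and that of AHRR to 0.10 when summed with PDCD6-AHRR. Leaving out a library turned the sign within these ranges of log2 fold change: AHRR in suspension (-2.16 to 1.13) and with AT-0174 (-2.43 to 0.35), CYP1B1 in suspension (-0.0338 to 0.0218), CYP1A1 in AT-0174 against attached (-0.0612 to 0.164), and TIPARP and ARNT with AT-0174 (-0.00117 to 0.0477 and -0.00925 to 0.0954), none of them called. The cause was not tested.

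Over all genes, 3297, 121 and 3724 passed in the 3 comparisons, and 1714, 35 and 2056 with counts rebuilt from TPM. For AT-0174 against vehicle, 499 passed with no filter and 217 with the DESeq2 test. Leaving out a library gave 1935 to 2693, 63 to 86 and 2239 to 3276. With the replicate block, 3250, 146 and 3677 passed, and the members called were again 1, 0 and 3. Deviations of same-numbered libraries correlated at -0.0652 to 0.0526, and those of different-numbered libraries at -0.0862 to 0.0886. The numbers were therefore not taken as pairs. Depth limited ARNT2, CYP1A2, AHRR and PDCD6-AHRR, with at most 99.5 counts per library for the last 2 summed.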
